A study of Brassica rapa subsp. pekinensis with 4 samples.

Results

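The dehydrin genes of Chinese cabbage (*Brassica rapa* ssp. *pekinensis*) were compared in shoots of the early-bolting inbred line “4004” before cold (0D Ver) and after 35 days of vernalization (35D Ver). A *B. rapa* gene was taken as a dehydrin copy when its Arabidopsis match in the annotation column of the gene table was one of 10 Arabidopsis dehydrin loci. This rule found 10 of the 36698 listed genes, and they matched 6 of the 10 loci. *ERD14* (AT1G76180) had 3 copies, *ERD10* (AT1G20450) and *RAB18* (AT5G66400) had 2 copies each, and *HIRD11* (AT1G54410), *XERO1* (AT3G50980) and AT4G38410 had 1 copy each. No gene of the table analysed here had *COR47* (AT1G20440), *LTI30* (AT3G50970), AT2G21490 or AT4G39130 as its match. *COR47* and *ERD10* are close relatives, and whether a copy listed under *ERD10* corresponds to *COR47* was not tested, so the copies are named here by the listed match alone.

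Dehydrins are very hydrophilic, largely unstructured proteins of the late embryogenesis abundant (LEA) class. They carry a conserved lysine-rich stretch, the K-segment, with which they associate with membranes and other proteins, and they accumulate when cells lose water through drought, freezing or seed drying. In Arabidopsis, the acidic dehydrins *COR47*, *ERD10* and *ERD14* are induced by cold and dehydration, and *COR47* and *ERD10* belong to the genes activated in the cold by the CBF transcription factors. *RAB18* is a classical response gene of the drought hormone abscisic acid (ABA).

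Each condition was represented by 2 libraries of polyA RNA from shoots of several plants, and the methods call the replicates biological. The 0D Ver plants were 2 weeks old and came from a growth room at 23 °C on a cycle of 16 h light to 8 h dark. The 35D Ver plants were 7 weeks old and had been kept for 35 days at 5 ± 1 °C on a cycle of 12 h light to 12 h dark. No mutant or transgene was involved. Cold, plant age and day length therefore changed together, and their parts in any difference cannot be told apart. In such bulk tissue, fewer cells of a type and less RNA per cell cannot be told apart either.

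The libraries held between 17221386 and 23428420 deposited counts. Values below are normalized counts, that is, deposited counts divided by the library's size factor, and log2 fold changes are 35D Ver minus 0D Ver on the log2(normalized count + 1) scale. The green shoot markers, genes of photosynthesis, had 10 copies that matched 4 of 6 loci, and all were tested. Of these, 2 were higher and 2 lower at 35D Ver, where 20.1% of all tested genes were higher and 20.5% lower. The summed level of the green shoot markers was 160934 and 158084 at 0D Ver and 162578 and 121550 at 35D Ver. The 6 copies of root markers never exceeded a deposited value of 2. The 7 copies of seed storage and oil body markers summed to 33.4 and 43.9 at 0D Ver and to 12.8 and 14.6 at 35D Ver, and the 1 copy tested was lower. That copy, of *OLEO1*, reached the 10 scaled counts needed for a test only at 0D Ver, so only a lower call was open to it. The 10 copies of floral organ markers summed to 82.4 and 73.2 at 0D Ver and to 104 and 86.6 at 35D Ver. Of the 4 tested, 3 were higher, all of them copies of *PI*. These reached the 10 scaled counts needed for a test only at 35D Ver, so only a higher call was open to them. The remaining tested copy, Bra014822 of *AP3*, did not pass (log2 fold change -0.67). The 7 copies of leaf senescence markers summed to 1851 and 1731 at 0D Ver and to 4424 and 7095 at 35D Ver, and 4 of the 7 were higher. Of these 4, the *SAG12* copies reached the 10 scaled counts needed for a test only at 35D Ver, so only a higher call was open to them. The others were copies of *NAP*, and no *SAG101* copy passed. The part of any of these markers in the dehydrin values was not tested.

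The family split by locus after vernalization. Copies of *ERD10* and *ERD14* were higher at 35D Ver, both copies of *RAB18* were lower, and the *HIRD11* copy did not pass the test. Of the 8 copies with enough counts to be tested, 5 were higher and 2 lower at an adjusted p below 0.05 (limma, Benjamini-Hochberg over 29691 genes), where 20.1% of all tested genes were higher and 20.5% lower. With the further thresholds used in the study, a change of 1 or more on the log2 scale and 500 or more normalized counts, read here as the mean of the higher condition because the methods do not say which mean is meant, 4 copies remained higher (1.34% of all tested genes) and 1 remained lower (1.75% of all tested genes). The 35D Ver values exceeded the 0D Ver values without overlap in 6 of the 8 copies, which was so in 36.0% of all tested genes, and lay below them without overlap in 2, which was so in 37.1%. For 2 libraries against 2, the smallest two-sided p of an exact permutation test is 0.333, and the tests here therefore rest on a spread estimated across all genes.

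**Figure D1:**
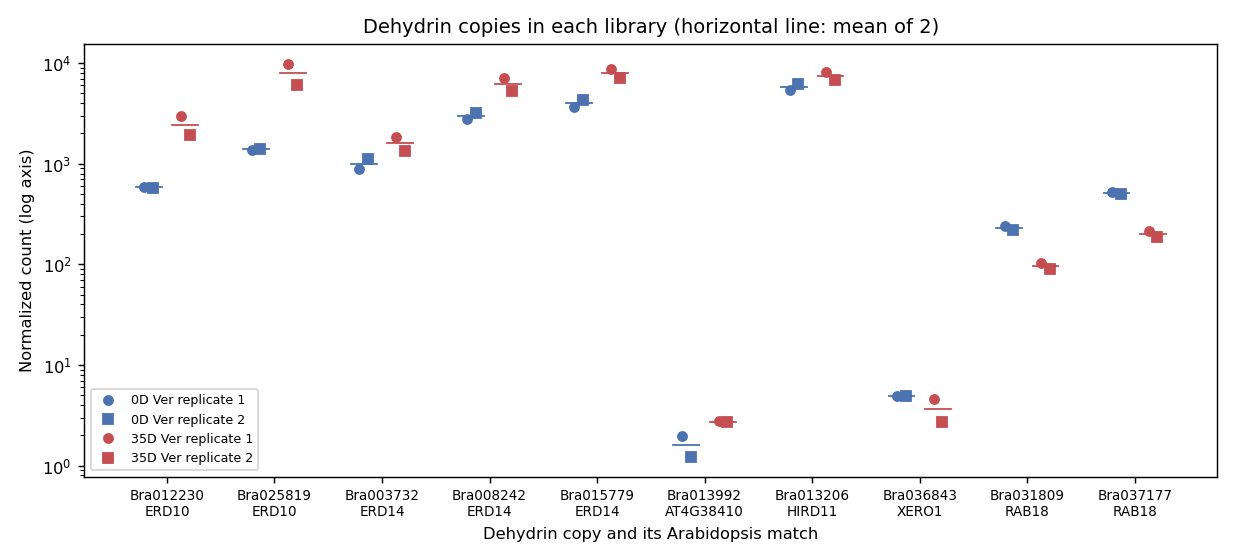
Normalized counts (log axis) of all 10 dehydrin copies in each of the 4 libraries, with 0D Ver in blue, 35D Ver in red, circles for replicate 1, squares for replicate 2 and a line at the mean of the 2. The *ERD10* copies stand farthest apart between conditions, from 570 to 594 at 0D Ver against 1942 to 2956 at 35D Ver in Bra012230, and the *RAB18* copies Bra031809 and Bra037177 are lower in both 35D Ver libraries.

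*ERD10* encodes an acidic dehydrin with chaperone-like activity, and the copies listed under it showed the largest increases of the tested copies. At 0D Ver the copy Bra025819 stood at 1364 and 1415 normalized counts, and at 35D Ver at 9879 and 6021. The 35D Ver libraries were thus both far above the 0D Ver libraries, with replicate 1 clearly higher than replicate 2. The mean of 7950 ± 2728 at 35D Ver was 5.72 times the mean of 1389 ± 35.8 at 0D Ver (SD, n = 2), and the log2 fold change was 2.47 (SE 0.21, 95% interval 1.97 to 2.98, limma adjusted p = 0.000211). This was the 271st largest increase among the tested genes.

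The second *ERD10* copy, Bra012230, had 593.7 and 570.0 normalized counts at 0D Ver and 2956 and 1942 at 35D Ver. It showed the same order of libraries at 35D Ver, and the conditions did not overlap. Its mean rose 4.21-fold from 582 ± 16.7 to 2449 ± 717 (SD, n = 2), which was 2.04 on the log2 scale (SE 0.18, 95% interval 1.62 to 2.46, limma adjusted p = 0.000134).

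*ERD14* encodes another acidic dehydrin, which in Arabidopsis binds calcium and protects enzymes from aggregation. All 3 of its copies were higher at 35D Ver, by smaller factors than those of *ERD10*. Bra015779 had 3689 and 4258 normalized counts at 0D Ver and 8838 and 7123 at 35D Ver, and Bra008242 had 2796 and 3214 at 0D Ver and 7107 and 5268 at 35D Ver. In both copies the conditions were clearly separated, and the replicates differed less than the conditions. The mean of Bra015779 rose 2.01-fold (log2 fold change 1.00, SE 0.14, 95% interval 0.68 to 1.32, limma adjusted p = 0.000846). The mean of Bra008242 rose 2.06-fold (log2 fold change 1.03, SE 0.16, 95% interval 0.67 to 1.38, limma adjusted p = 0.00132). Both thus lay just inside the study's limit of 1 on the log2 scale. Bra008242 fell below it without replicate 1 of 0D Ver (0.92) and without replicate 1 of 35D Ver (0.84). Bra015779 fell below it in the same fits (0.89 and 0.87), and marginally with scaling by total counts (0.99), with 1 subtracted from each value and with limma-voom.

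The third *ERD14* copy, Bra003732, had 885 and 1106 normalized counts at 0D Ver and 1853 and 1350 at 35D Ver. Here the higher 0D Ver library and the lower 35D Ver library came close to each other without overlapping. The mean rose 1.61-fold, from 995 ± 156 to 1602 ± 356 (SD, n = 2), or by 0.68 on the log2 scale (SE 0.17, 95% interval 0.28 to 1.07, limma adjusted p = 0.0148). This call was lost without replicate 1 of 0D Ver (limma adjusted p = 0.0903) and without the trend and robust options of limma (adjusted p = 0.0619).

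*HIRD11* encodes a small dehydrin of the KS type, rich in histidine and able to bind metal ions. Its copy Bra013206 had 5404 and 6227 normalized counts at 0D Ver and 8243 and 6778 at 35D Ver. Both 35D Ver libraries were above both 0D Ver libraries, but the gap between the nearest libraries of the 2 conditions was smaller than the difference between replicates. The 35D Ver mean was 1.29 times the 0D Ver mean, with a log2 fold change of 0.37 (SE 0.14, 95% interval 0.05 to 0.68), and the limma adjusted p was 0.0618. Across 15 alternative settings the adjusted p ranged from 0.0108 to 0.324 and passed 0.05 in 3 of them, so these libraries do not settle whether the level of this copy changed.

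*RAB18* encodes a dehydrin of the YSK type that in Arabidopsis is induced by ABA and drought and is abundant in seeds and guard cells. Both of its copies moved in the opposite direction to *ERD10* and *ERD14*. Bra037177 had 520 and 503 normalized counts at 0D Ver and 214 and 185 at 35D Ver. The replicates lay close together in each condition, and the 2 conditions were well apart. The mean of Bra037177 was 2.56-fold lower at 35D Ver, from 511 ± 12.2 to 199.7 ± 20.7 (SD, n = 2), and the log2 fold change was -1.36 (SE 0.13, 95% interval -1.64 to -1.07, limma adjusted p = 0.000112).

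Bra031809 had 241 and 222 normalized counts at 0D Ver and 104 and 89.3 at 35D Ver, again without overlap. Its mean was 2.40-fold lower at 35D Ver, with a log2 fold change of -1.26 (SE 0.15, 95% interval -1.60 to -0.91, limma adjusted p = 0.000417). Its mean in the higher condition, 232 normalized counts, lay below the minimum of 500 that Bra037177 passed. Bra037177 itself passed only with the minimum set on the higher condition, since its 35D Ver mean of 199.7 lay below 500.

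The remaining pair of copies was barely detected. Bra036843, the match of *XERO1*, a dehydrin known mostly from seeds in Arabidopsis, had deposited values of 5 and 4 at 0D Ver and of 5 and 3 at 35D Ver. Bra013992, the match of the dehydrin AT4G38410, had 2 and 1 at 0D Ver and 3 and 3 at 35D Ver. No library held a value below 1, so the authors probably added 1 to every count, and after its removal these copies stood at 0 to 4 counts per library. Neither passed the filter on low counts, and no difference was detectable at this depth.

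**Figure D2:**
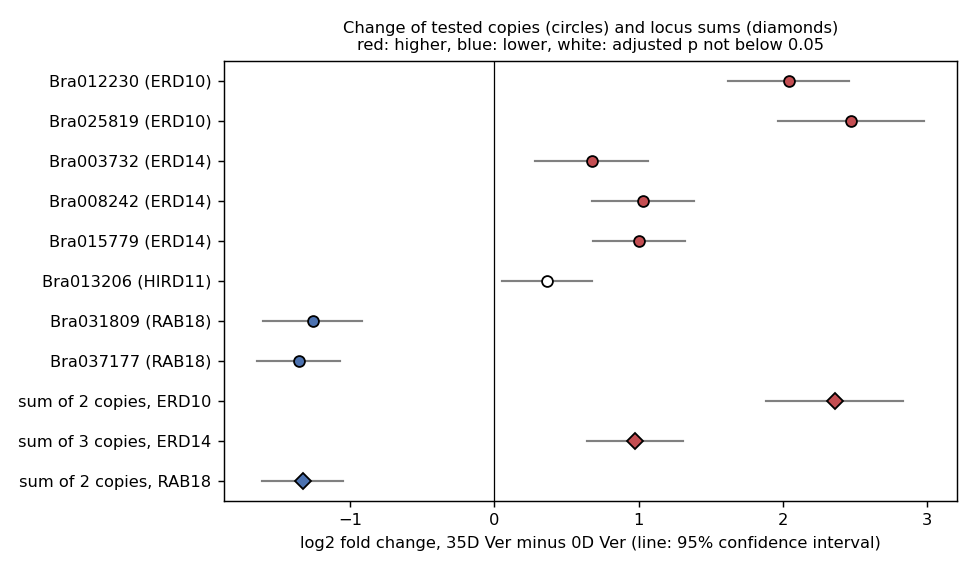
Log2 fold change (35D Ver minus 0D Ver) of the 8 tested dehydrin copies (circles) and of the sums over the copies of a locus (diamonds), each with its 95% interval from limma, red where higher, blue where lower and white where the adjusted p was not below 0.05. The *ERD10* copies lie at 2.04 and 2.47, the *ERD14* copies between 0.68 and 1.03, the *HIRD11* copy at 0.37 and the *RAB18* copies at -1.26 and -1.36, and the sums lie at 2.36, 0.98 and -1.33.

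Reads from near-identical copies may have been divided between them, since the counting of reads that map to several genes is not given in the sources used here. The levels were therefore also summed over the copies of a locus, which does not depend on that division. The *ERD10* sum was 1958 and 1985 at 0D Ver and 12835 and 7963 at 35D Ver, 5.28-fold higher (log2 fold change 2.36, SE 0.20, limma adjusted p = 0.000191). The *ERD14* sum was 7370 and 8578 at 0D Ver and 17798 and 13741 at 35D Ver, 1.98-fold higher (log2 fold change 0.98, SE 0.15, limma adjusted p = 0.00145). The *RAB18* sum was 761 and 725 at 0D Ver and 318 and 274 at 35D Ver, 2.51-fold lower (log2 fold change -1.33, SE 0.12, limma adjusted p = 0.000159). Thus 2 of the 4 tested sums were higher and 1 was lower, where 19.4% of all 16976 tested locus sums were higher and 21.0% lower. The directions of the loci were those of their single copies.

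Summed over all 10 copies, the dehydrins gave 15500 and 17520 normalized counts at 0D Ver and 39201 and 28762 at 35D Ver. The family sum was thus 2.06-fold higher after cold, 33981 ± 7382 against 16510 ± 1429 (SD, n = 2), and its conditions did not overlap. It made up 0.0741% and 0.0834% of all deposited counts at 0D Ver and 0.183% and 0.139% at 35D Ver. Within the family sum, the share of *ERD10* averaged 12.0% at 0D Ver and 30.2% at 35D Ver, that of *ERD14* 48.3% and 46.6%, that of *HIRD11* 35.2% and 22.3%, and that of *RAB18* 4.53% and 0.882%. These are shares of counts, which also depend on the lengths of the genes, and were not tested.

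**Figure D3:**
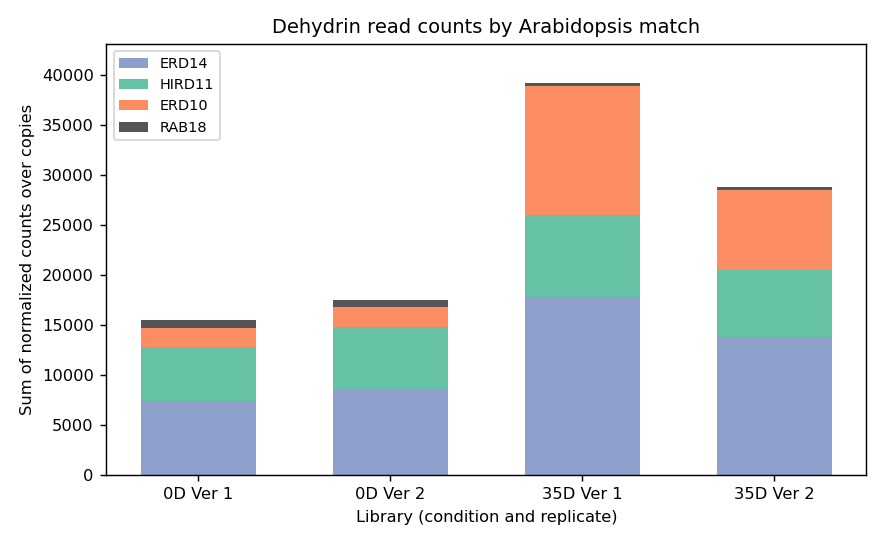
Normalized counts summed over the 10 dehydrin copies in each library, stacked by Arabidopsis locus, on an axis that starts at 0 (the *XERO1* and AT4G38410 copies are too low to be drawn). The sums are 15500 and 17520 at 0D Ver and 39201 and 28762 at 35D Ver, and the *ERD10* layer is the one that grows most in proportion.

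Copies of one locus did not always change by the same factor. This was tested on the log2 ratio between copies, in which library scaling cancels, over all 19670 pairs of tested genes that share an Arabidopsis match, of which 22.9% passed. Among the 5 dehydrin pairs 3 passed. In *ERD10*, the log2 ratio of Bra012230 to Bra025819 was -1.20 and -1.31 at 0D Ver and -1.74 and -1.63 at 35D Ver, so that Bra025819 gained on Bra012230 (change -0.43, SE 0.06, 95% interval -0.58 to -0.28, limma adjusted p = 0.0116). In *ERD14*, Bra003732 fell behind Bra008242 (change of the log2 ratio -0.35, SE 0.05, 95% interval -0.48 to -0.23, limma adjusted p = 0.0122). It also fell behind Bra015779 (change -0.32, SE 0.07, 95% interval -0.50 to -0.15, limma adjusted p = 0.0311).

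The other 2 pairs did not pass the test. The ratio of the *ERD14* copies Bra008242 and Bra015779 changed by 0.03 (95% interval -0.08 to 0.14, limma adjusted p = 0.683) and that of the *RAB18* copies Bra031809 and Bra037177 by 0.10 (95% interval -0.11 to 0.30, limma adjusted p = 0.435). The 3 calls were not all kept in any fit that left out a library, whichever library it was. Only 1 pair passed without replicate 1 of 0D Ver, and 0 passed without replicate 2 of 0D Ver, without replicate 1 of 35D Ver or without replicate 2 of 35D Ver, while 3 or 4 of the 5 pairs stayed at an unadjusted p below 0.05 in each of these fits. The change kept its negative sign in all 3 pairs in every one of these fits.

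**Figure D4:**
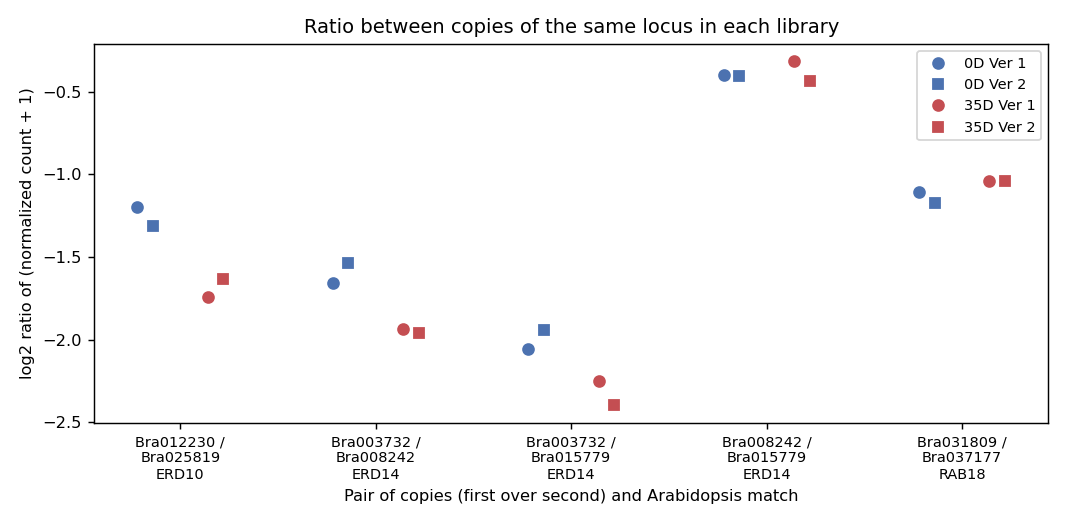
Log2 ratio of (normalized count + 1) between 2 copies of the same locus in each library, for the 5 dehydrin pairs (0D Ver blue, 35D Ver red, circles replicate 1, squares replicate 2). The points of 35D Ver lie below those of 0D Ver for Bra012230 against Bra025819 and for Bra003732 against either other *ERD14* copy, and close to them for the remaining pairs.

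The 2 libraries of 35D Ver differed in the same direction in every tested dehydrin copy, by amounts that varied between copies. Replicate 1 was above replicate 2 in all 8 tested copies, while it was above in 51.7% of all tested genes, and at 0D Ver it was above in 3 of the 8 copies. The ratio of replicate 1 to replicate 2 at 35D Ver ranged from 1.16 in the *RAB18* copies to 1.64 in Bra025819. On the log2 scale the ratios of the *ERD10* copies, 0.61 and 0.71, both exceeded 0.52, the 95th percentile of that ratio over all tested genes. Over tested genes with a mean of at least 500 normalized counts, the 95th percentile was 0.38. The *ERD14* copies Bra003732 (0.46) and Bra008242 (0.43) exceeded that value as well, while Bra015779 (0.31) and the *HIRD11* copy (0.28) did not. The green shoot markers were also higher in replicate 1 of 35D Ver, in 10 of 10 copies. The senescence marker *SAG12*, a cysteine protease gene of ageing leaves, was higher in replicate 2, with 149 normalized counts in replicate 1 and 1640 in replicate 2 for Bra021998, against 0.98 and 2.44 at 0D Ver. Their part in the difference between the replicates was not tested.

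The genes around the dehydrins in the cold pathway were read from lists of Arabidopsis loci. Of the other cold-regulated genes, most of them known as CBF targets, 5 of 9 loci had a copy, and all 9 copies were higher at 35D Ver (20.1% of all tested genes), with log2 fold changes from 0.39 to 5.45 and a median of 3.31, beside a median of -0.01 over all tested genes. The median of the 8 tested dehydrin copies was 0.84. The largest increase of the list was in *COR15B* (Bra000263), which encodes a chloroplast protein that protects membranes during freezing. It had 136 and 195 normalized counts at 0D Ver and 8720 and 5882 at 35D Ver, a 44.0-fold rise (log2 fold change 5.45, SE 0.23, limma adjusted p = 1.83e-05). The lowest, 0.39 in the *COR413PM1* copy Bra013087, was the closest to the threshold (limma adjusted p = 0.0498), and in 9 of the 15 other settings 8 copies passed. Replicate 1 of 35D Ver was the higher one in 8 of the 9 copies. The list included 3 copies whose listed match was *RD29B*, known in Arabidopsis mainly as an ABA response gene. One of them, Bra022585, gave the median.

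Among the CBF factors themselves and the upstream ICE regulators, 3 of 10 copies were higher, 2 lower and 5 did not pass, shares near those of all tested genes (20.1% higher and 20.5% lower), with a median log2 fold change of 0.22. *CBF1* (Bra010463) had 40.2 and 26.9 normalized counts at 0D Ver and 74.2 and 64.7 at 35D Ver (log2 fold change 1.05, limma adjusted p = 0.00955). Of the *CBF2* copies, Bra019162 rose from 190 and 189 to 443 and 315 (0.97, limma adjusted p = 0.00235) and Bra022770 from 241 and 244 to 550 and 397 (0.94, limma adjusted p = 0.00219). In all 3 copies the conditions did not overlap. The third *CBF2* copy, Bra010460, had 10.8 and 4.88 against 12.8 and 7.29, and *CBF3* (Bra010461) 22.6 and 11.0 against 34.8 and 20.1, with overlapping conditions in both (limma adjusted p = 0.547 and 0.187). *ICE1* (Bra025226), an activator of *CBF3*, fell from 928 and 779 to 659 and 651 (log2 fold change -0.38, limma adjusted p = 0.0344). The limma count of 2 lower copies in this list fell to 0 when replicate 1 of 0D Ver or either replicate of 35D Ver was left out (0, 1 and 2 copies at an unadjusted p below 0.05 without replicate 1 of 0D Ver, replicate 1 of 35D Ver and replicate 2 of 35D Ver). It fell to 1 without replicate 2 of 0D Ver, and to 0 without the trend and robust options (2 at an unadjusted p below 0.05).

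*RAB18* was also set beside the core genes of the ABA response, namely phosphatases, kinases and transcription factors. Of the 20 copies of the 11 loci, 18 were tested, of which 2 were higher, 2 were lower and 14 did not pass, beside 20.1% higher and 20.5% lower among all tested genes, and the median log2 fold change was -0.00. The *ABF1* copy Bra018800, encoding a transcription factor that binds ABA response elements, rose from 204 and 134 to 379 and 540 normalized counts (log2 fold change 1.44, limma adjusted p = 0.00261). The *ABI2* copy Bra002766, encoding a phosphatase that restrains ABA signalling, fell from 1109 and 1261 to 819 and 907 (log2 fold change -0.46, limma adjusted p = 0.0139). The 2 higher copies became 1 when replicate 1 of either condition was left out. The 2 lower copies became 1 when either replicate of 0D Ver was left out, 0 without replicate 1 of 35D Ver (1 at an unadjusted p below 0.05) and 0 without the trend and robust options of limma (2 at an unadjusted p below 0.05). Without those options 1 copy was higher.

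*RD29B* encodes a hydrophilic protein whose Arabidopsis gene, like *RAB18*, responds to ABA. Its copy Bra022585 had 3606 and 3826 normalized counts at 0D Ver and 41773 and 32325 at 35D Ver (log2 fold change 3.31, SE 0.15, limma adjusted p = 2.72e-06). Bra022584 had 520 and 592 against 1353 and 1212 (1.21, limma adjusted p = 0.000144), and Bra029121 had 14.7 and 21.97 against 42.1 and 43.8 (1.21, limma adjusted p = 0.00793). All 3 copies were thus higher at 35D Ver without overlap, whereas both *RAB18* copies were lower. These copies too are named by the listed match alone. Whether each of them corresponds to *RD29B* rather than to a related gene was not tested, nor was its response to ABA.

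LEA proteins outside the dehydrin family were counted in the same way. Of 31 copies, which matched 18 of 28 loci, 17 were tested, and 9 were higher, 4 lower and 4 not past the threshold, beside 20.1% higher and 20.5% lower among all tested genes, with a median log2 fold change of 0.78. The largest increase was in Bra033350, the match of AT1G02820, with 39.2 and 14.6 normalized counts at 0D Ver and 147 and 163 at 35D Ver (log2 fold change 2.64, limma adjusted p = 0.00309). The largest decrease was in Bra022221, the match of AT3G17520, with 13.7 and 17.1 against 0.92 and 2.73 (log2 fold change -2.61, limma adjusted p = 0.00225), close to the lowest value a library can have here. This copy and the lower copy Bra005911 reached the 10 scaled counts needed for a test only at 0D Ver. Only a lower call was therefore open to them. The higher copy Bra033520 reached these counts only at 35D Ver, so only a higher call was open to it. With at least 10 counts required in every library, 9 copies were higher and 2 lower. Fewer copies were higher in each fit that left out a single library. Fewer were lower in all of these fits except the one without replicate 1 of 35D Ver. These fits also tested fewer copies, 15 without either replicate of 0D Ver and 16 without either replicate of 35D Ver. A copy that is no longer tested can no longer be called, so a lower count need not mean that a call failed.

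**Figure D5:**
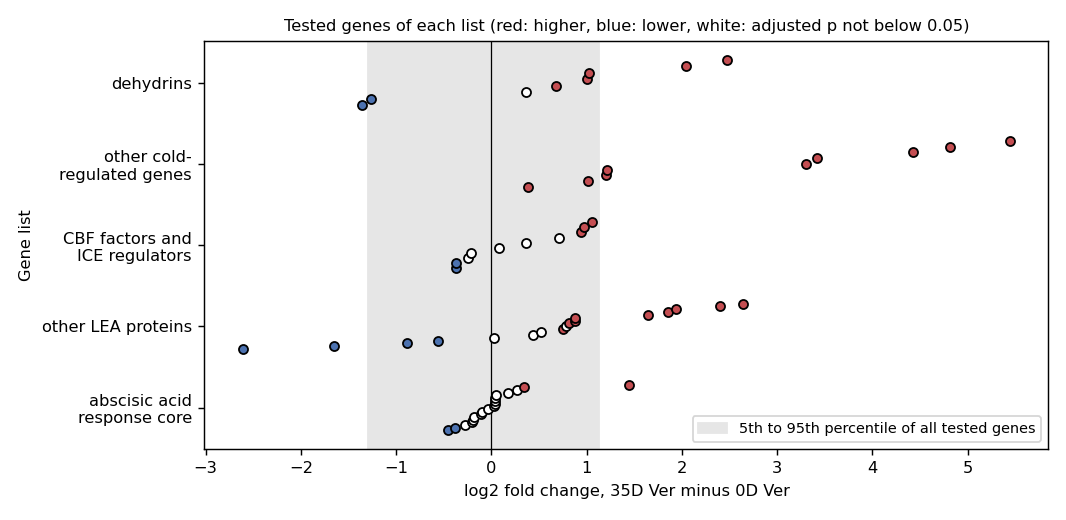
Log2 fold change (35D Ver minus 0D Ver) of every tested copy in the dehydrin list and in 4 lists of related genes, one point per copy, red where higher, blue where lower and white where the adjusted p was not below 0.05. The grey band spans the 5th to the 95th percentile of all tested genes. The other cold-regulated genes lie between 0.39 and 5.45, all above 0, whereas the dehydrins, the other LEA proteins, the CBF and ICE genes and the ABA genes have copies on both sides of 0.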

How the data were processed

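Shoots of line “4004” were sequenced as 2 libraries per condition. Per the methods, reads were trimmed with SolexaQA and mapped with Bowtie2 to the coding sequences of the BRAD gene set of *B. rapa*, and the authors deposited whole-number counts per gene (recorded as another unit, because commas stand inside the numbers; the lowest value is 1) with an Arabidopsis match for each gene. The labels name both a stranded and a non-stranded kit, so reads of antisense genes cannot be told apart. No sequences or positions were used.

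Here, counts were divided by TMM size factors (trims 0.3 and 0.05). A gene was tested with at least 10 scaled counts in at least 2 libraries and at least 15 in total. Values of log2(normalized count + 1) were fitted with limma 3.58.1 in R 4.3.3 (condition only, mean-variance trend, robust), two-sided, with Benjamini-Hochberg adjustment and a threshold of 0.05. The fit was repeated on locus sums and on log2 ratios of copies. The fits were also run on simulated counts with a single dispersion for all genes, a check of the calculation that gives no error rates for these data. Figures were drawn with matplotlib 3.10.9. Size factors ranged from 0.819 to 1.10. Replicates differed beyond sampling noise (chi-square per degree of freedom 9.30 and 10.2, against 71.3 to 80.4 between conditions).

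Libraries with the same replicate number did not deviate together (r = -0.17 across 29691 genes, which are not independent), so no block was used. All dehydrin copies are named, with all *CBF1* to *CBF3* copies and the largest non-overlapping increase and decrease past the threshold in each related list. The marker genes *OLEO1*, *PI*, *AP3*, *NAP*, *SAG101* and *SAG12* were named after their values were seen. The same holds for *COR413PM1*, *RD29B* and the LEA copies Bra005911 and Bra033520. The members and lists were chosen with earlier results of these data known. Alternatives covered scaling, filter, pseudocount, the added 1, limma-voom, empirical Bayes options, a replicate block and leaving out each library.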

Additional observations from a re-analysis of the deposited data

How the results depend on the processing

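Each of the 8 tested dehydrin copies kept the direction of its fold change under all 15 alternatives. The number of copies higher at 35D Ver was 4 without the trend and robust options, without replicate 1 of 0D Ver and with the study's thresholds, 6 with median-of-ratios size factors, without replicate 2 of 35D Ver and with crossed replicate numbers, and 5 otherwise, and 2 copies were lower in all fits, or 1 with the study's thresholds. The number of copy pairs past the threshold fell from 3 to 0 without the trend and robust options (3 at an unadjusted p below 0.05), to 1 under a replicate block, and to between 0 and 1 when single libraries were left out. The cause was not tested. With the replicate block, 5 copies were higher and 2 lower, and 10334 genes were called in place of 12042. Under the same block the lower calls among the CBF and ICE genes, *ICE1* included, fell from 2 to 0 (2 at an unadjusted p below 0.05), and the ABA genes had 1 higher and 1 lower. Deviations of libraries of the same number were weakly and negatively correlated across genes (r = -0.17), so the numbers were also crossed. This alternative, chosen after seeing the data, called 14317 genes, with 6 dehydrin copies higher and 2 lower. TMM factors computed on all listed genes, also chosen after seeing the data, gave 5 and 2. With 2 libraries per condition, small changes such as that of *HIRD11* are at the limit of detection, and the untested copies at 0 to 4 counts are below it.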
